A study of Mus musculus with 22 samples.

Results

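Immune checkpoint and costimulatory genes encode the surface and secreted proteins by which immune cells restrain or drive one another, and 10 of them were followed in CD11b+ cells of the neonatal mouse brain: the receptors Pdcd1, Havcr2 and Lag3, the ligands Cd274, Pdcd1lg2 and Lgals9, the regulator Vsir, and the costimulatory genes Cd80, Cd86 and Cd40. The 10 genes were given as a list and matched by Ensembl identifier among the 56691 genes of the tables, and all 10 were found. The list was chosen by values of these data, since it was drawn up with Pdcd1 known to be higher in P7 HIE pups. All P7 differences between HIE and control pups are therefore given as a description, with no test.

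Microglia, the resident macrophages of the brain, are the main cells that carry CD11b there, and they sample the tissue and can present antigen. In the best known setting, the CD80 and CD86 proteins on an antigen-presenting cell give a T cell a second, activating signal through CD28, and the same proteins bind the inhibitory receptor CTLA4. PD-1, encoded by Pdcd1, restrains the cell that carries it when it meets PD-L1 or PD-L2, encoded by Cd274 and Pdcd1lg2. Macrophages and microglia can carry several of these receptors themselves.

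Bulk RNA sequencing covered 22 libraries from 20 outbred CF-1 mice in 5 groups of 4. CD11b+ cells were enriched on magnetic beads from dissociated whole brain. HIE animals were born to dams given LPS late in gestation and had a short severe hypoxia on P6. They were collected on P7 or on P14. The study's methods give saline to the dam and normoxia to the pup for controls. The P14 hypoxia animals carry only that treatment in the labels, and the study's text does not describe them. The day labels of the 4 early controls are P8, P9, P10 and P11, 1 pup each, whereas the methods give P7, and they are called P7 controls here. Pups share name prefixes in pairs, called litters here, which are N5 and N8 in P7 HIE and P6H63 and P6H55 in the P7 controls. Each litter holds 1 treatment. The P14 HIE and control groups each hold 2 animals with the prefix P4H and 2 with P6H, and the P14 hypoxia animals are all P6H. Total counts ran from 70191541 to 83469037 per P7 pup and from 29751486 to 76166694 per P14 animal. The 2 deepest P14 animals, P4H1-6F (76166694) and P6H12-11M (70491706), are both HIE and have 2 libraries each. The P14 hypoxia libraries are all labelled RNA2, whereas HIE libraries are labelled RNA2 to RNA4 and control libraries RNA1 to RNA3. Depth and library label are thus partly tied to treatment on P14, and the part of the label was not tested. P7 and P14 libraries came as separate tables, so day and table cannot be told apart. All 4 P7 HIE pups are labelled male, whereas the P7 controls and each P14 group hold 2 males and 2 females by label. Sex label and treatment are thus unbalanced on P7, and the part of sex in the P7 differences was not tested. Xist and Ddx3y, a female and a male transcript, matched the sex label in 18 of 20 animals. The HIE pup N5-3, labelled male, had Xist at 2378 CPM (counts scaled to a common library size, with TMM factors within a table) and Ddx3y at 0, and the control pup P6H55-12, labelled female, had Xist at 0.247 CPM and Ddx3y at 0.

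The control litters differed in microglial content, which bears on every P7 value below. A microglia score, the mean log2 CPM of 16 marker genes such as Csf1r, was 9.62 ± 0.09 (SD, n = 4) in P7 HIE pups and 7.84 ± 1.71 in controls. It was 9.30 in litter P6H55 and 6.38 in litter P6H63, whose 2 pups also had the highest astrocyte and endothelial scores of the 20 animals. P6H63 pups summed to 1720 and 2698 CPM over the microglia markers, against 16090 and 18262 CPM in P6H55 and 20296 to 23114 CPM in HIE pups. The P14 groups had scores of 9.83 ± 0.25 (HIE), 9.62 ± 0.18 (control) and 9.70 ± 0.24 (hypoxia). In bulk samples, fewer cells of a type and less RNA per cell cannot be told apart. Of the 12 T cell markers, those that belong most strictly to T cells were low: Cd3d, Cd3e, Cd3g, Cd8a, Cd8b1, Trac, Trbc1 and Trbc2 reached at most 0.586, 0.267, 0.150, 0.210, 0.101, 0.282, 0.116 and 0.189 CPM in any of the 20 animals. These maxima lie above the level of 3 counts, 0.0359 to 0.101 CPM per animal, and Cd3d had 10 to 40 counts in P7 HIE pups. The other 4 markers were higher, up to 15.5 CPM for Cd4, 11.4 CPM for Cd28, 5.27 CPM for Bcl11b and 1.81 CPM for Lck. The highest gene of the 12-gene T cell list was Cd4 in each of the 5 groups, at group means of 7.67 to 10.7 CPM, and the list summed to 15.1 to 27.2 CPM in P7 HIE and 8.15 to 23.5 CPM in P7 controls.

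To show what stands in front of the genes, the 250 bases before the start of transcription are given for the receptor Pdcd1 and for the ligands Cd274 and Lgals9. They are printed 5′ to 3′ on the strand of the gene, from RefSeq with GRCm38.p6 coordinates: chr1:94052554-94052803 (minus strand) for Pdcd1, chr19:29367188-29367437 (plus strand) for Cd274 and chr11:78984925-78985174 (minus strand) for Lgals9. RefSeq entries were matched for 7 of the 10 genes, namely these 3, Pdcd1lg2, Havcr2, Vsir and Cd80, and not for Lag3, Cd86 and Cd40. Capitals mark matches on either strand to GAGGAA, a core bound by PU.1 and other ETS factors, or to GAAANNGAA, a pattern of interferon regulatory factors.
Pdcd1: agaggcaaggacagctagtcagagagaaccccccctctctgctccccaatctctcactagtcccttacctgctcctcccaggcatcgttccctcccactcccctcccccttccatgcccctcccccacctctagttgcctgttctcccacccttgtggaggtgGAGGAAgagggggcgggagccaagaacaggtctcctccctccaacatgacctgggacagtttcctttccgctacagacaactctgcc
Cd274: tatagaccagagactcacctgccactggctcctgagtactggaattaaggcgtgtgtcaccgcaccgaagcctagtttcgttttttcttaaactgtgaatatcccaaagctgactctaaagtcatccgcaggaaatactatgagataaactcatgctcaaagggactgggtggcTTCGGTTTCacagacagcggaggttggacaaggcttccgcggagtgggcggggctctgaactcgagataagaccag
Lgals9: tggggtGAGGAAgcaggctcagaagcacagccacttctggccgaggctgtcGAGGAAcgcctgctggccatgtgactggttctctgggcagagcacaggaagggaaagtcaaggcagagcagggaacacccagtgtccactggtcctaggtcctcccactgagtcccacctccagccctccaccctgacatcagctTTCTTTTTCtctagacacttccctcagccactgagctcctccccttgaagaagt
Pdcd1 held 1 GAGGAA match, Cd274 held 1 GAAANNGAA match on the opposite strand, and Lgals9 held 2 GAGGAA matches and 1 GAAANNGAA match. GAGGAA was found in 23.3% and GAAANNGAA in 7.13% of all 32851 RefSeq windows of this length. TTCNNNGAA, a STAT pattern found in 7.02% of windows, matched none of the 7. The AP-1 pattern TGANTCA, found in 6.75%, matched in Havcr2 and Cd80, and the NF-κB consensus, found in 3.90%, matched in Pdcd1lg2. GAGGAA also matched in Havcr2 and Pdcd1lg2, and the Vsir window held no match to any of the 5. No matches overlapped in the 3 printed windows. A match describes letters and not a bound site.

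Per length of exon, Vsir was the most abundant of the 10 genes in all 5 groups and Pdcd1lg2 the least. In P7 HIE pups the levels in CPM per kb were 174 ± 19.8 for Vsir, 78.8 ± 7.51 for Lag3, 60.0 ± 9.51 for Lgals9, 31.5 ± 2.41 for Cd86, 22.9 ± 1.76 for Havcr2, 7.47 ± 2.16 for Pdcd1, 3.20 ± 0.66 for Cd80, 2.21 ± 0.17 for Cd274, 0.956 ± 0.111 for Cd40 and 0.0461 ± 0.0381 for Pdcd1lg2 (SD, n = 4). Pdcd1 thus stood above Cd80 and Cd274 there, whereas in P14 hypoxia animals it stood at 1.41 ± 0.33 CPM per kb, below Cd80 at 2.40 ± 0.23. Its mean was also below that of Cd80, by less than its SD, in P14 HIE (2.37 against 2.71) and P7 controls (1.40 against 1.45). In P14 controls it was above that of Cd80, at 2.60 against 2.42. The mean of the receptor Pdcd1 was above that of its ligand Cd274 in all 5 groups, at 1.40 ± 0.83 against 1.25 ± 0.42 CPM per kb in P7 controls and 2.60 ± 1.09, 2.37 ± 0.81 and 1.41 ± 0.33 against 0.814 ± 0.090, 0.949 ± 0.157 and 0.682 ± 0.115 CPM per kb in P14 control, HIE and hypoxia animals. The P7 control pups were split, with P6H55-7 at 0.944 against 1.86 and P6H55-12 at 2.65 against 1.19 CPM per kb. Litter P6H63 had means of 1.01 against 0.969. Cd86 was far above its relative Cd80 in the P14 controls, at 30.5 ± 1.43 against 2.42 ± 0.25 CPM per kb.

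**Figure D1:**
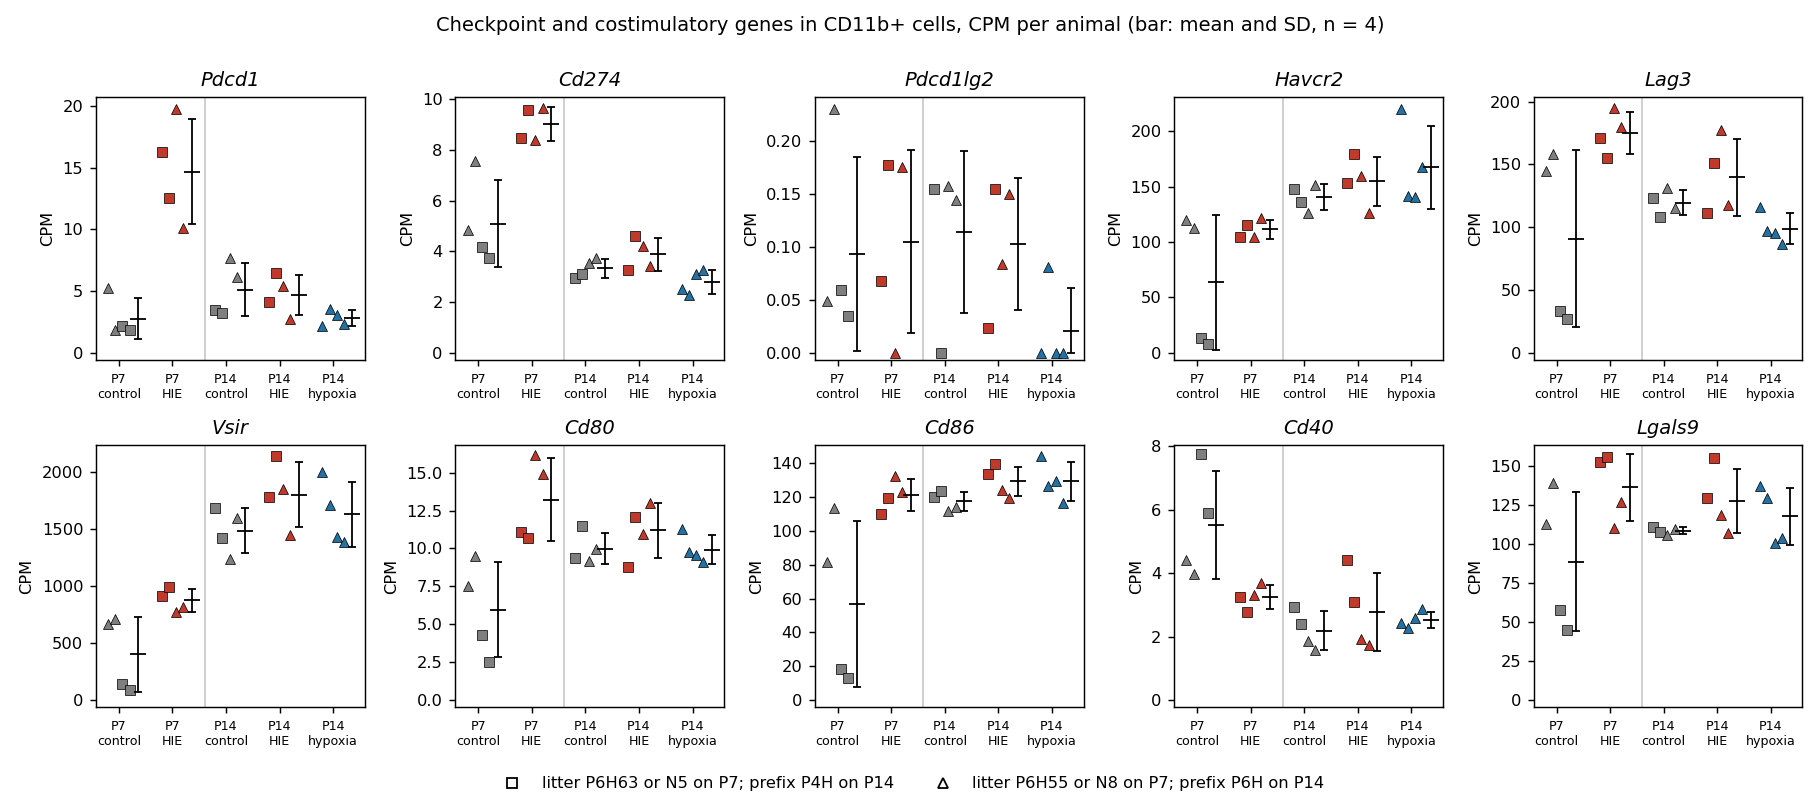
CPM of each of the 10 genes in every animal, on a linear axis per gene, for P7 controls, P7 HIE, P14 controls, P14 HIE and P14 hypoxia (n = 4 each). Symbols mark the litter or name prefix, bars give the mean and SD, cut at 0 where they would pass below it, and the Pdcd1 panel shows P7 HIE pups at 10.2 to 19.8 CPM above the other 16 animals.

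Pdcd1 (ENSMUSG00000026285.9, chromosome 1, 93966027 to 93980312 in GRCm39, minus strand) encodes the inhibitory receptor PD-1. In P7 HIE pups it measured 16.3 and 12.5 CPM in litter N5 and 19.8 and 10.2 CPM in litter N8, from 693 to 1388 counts. The control pups had 2.12 and 1.86 CPM in P6H63 and 1.86 and 5.22 CPM in P6H55, from 129 to 423 counts. Each HIE pup stood above each control pup, the nearest 2 values being 10.2 and 5.22 CPM. The means were 14.7 ± 4.24 and 2.76 ± 1.64 CPM (SD, n = 4), and the fitted log2 fold change was 2.41. As ratios of mean CPM, HIE pups were 7.38-fold above P6H63 and 4.15-fold above P6H55. The highest control, P6H55-12, is the pup whose label and sex transcripts differ, and without it the log2 fold change was 2.92. Without N5-3 it was 2.36, and without both it was 2.87.

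Relative to the microglia score, the direction of the Pdcd1 difference depended on the control litter. The log2 CPM minus score was -5.78 ± 0.46 in HIE pups, -5.37 ± 0.32 in P6H63 pups and -7.64 ± 1.19 in P6H55 pups, so that HIE pups were 0.41 lower than P6H63 on average and 1.86 higher than P6H55. Against all 4 controls the difference was 0.72. On the same scale, against P6H55, whose score was near that of HIE pups, Cd274 (0.25), Cd80 (0.29), Vsir (0.02) and Cd86 (0.006) were also positive, and Havcr2, Lag3, Cd40 and Lgals9 were negative. Against P6H63 only Havcr2 was positive, at 0.19. The subtraction takes a gene's CPM to rise in direct proportion to the microglia markers, which was not tested. A gene that does not follow the score is lowered by it against P6H63, whose score was low. Border macrophage markers, led by Mrc1, summed to 2341 to 4071 CPM in HIE pups, 408 and 531 CPM in P6H63 and 2622 and 3564 CPM in P6H55. The part of either cell type in the Pdcd1 values was not tested.

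On P14 Pdcd1 was low in all groups. Control animals had 3.47 and 3.24 CPM with the prefix P4H and 7.65 and 6.13 CPM with P6H. HIE animals had 4.12 and 6.43 CPM with P4H and 5.38 and 2.73 CPM with P6H, and the hypoxia animals had 2.14, 3.08, 2.35 and 3.54 CPM. HIE and control values overlapped, as did hypoxia and control values. Over the 5 groups Pdcd1 ran in the order P7 HIE, P14 control, P14 HIE, P14 hypoxia and P7 control, where P14 control and P14 HIE, and P14 hypoxia and P7 control, differed by less than the larger SD of the pair.

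Cd274 (ENSMUSG00000016496.8, chromosome 19, 29344529 to 29365495, plus strand) encodes PD-L1, the broadly expressed ligand of PD-1. P7 HIE pups had 8.46, 9.57, 8.39 and 9.67 CPM. Controls had 4.17 and 3.74 CPM in P6H63 and 7.57 and 4.85 CPM in P6H55. Each HIE pup was above each control, with means of 9.02 ± 0.69 and 5.08 ± 1.72 CPM (log2 fold change 0.83). Against P6H55 the ratio was 1.45-fold and against P6H63 2.28-fold. On P14 the means were 3.87 ± 0.64 (HIE), 3.32 ± 0.37 (control) and 2.78 ± 0.47 CPM (hypoxia). Cd274 overlaps Plgrkt and the long noncoding Gm36043 on the opposite strand, at 25.9 and 1.19 CPM on P7, and the strand setting of the counting is not given in the sources used here. Pdcd1lg2 (ENSMUSG00000016498.11, chromosome 19, 29388319 to 29448882), for PD-L2, had 0 to 16 counts per animal and passed the filter on low counts in no comparison. Of the 12 P14 animals, 4 had no Pdcd1lg2 count, 3 of them in the hypoxia group.

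Vsir (ENSMUSG00000020101.15, chromosome 10, 60182630 to 60208463, plus strand) encodes VISTA, an inhibitory protein of myeloid and T cells. P7 HIE pups had 915 and 994 CPM in N5 and 773 and 818 CPM in N8. Controls had 143 and 89.1 CPM in P6H63 and 707 and 667 CPM in P6H55. HIE pups lay above both control litters, 7.53-fold against P6H63 and 1.27-fold against P6H55. Minus the microglia score, the log2 difference was -0.29 against P6H63 and 0.02 against P6H55. Each P14 animal, of the other table, was above each P7 pup, with 1801 ± 282 (HIE), 1484 ± 196 (control) and 1629 ± 284 CPM (hypoxia). Its overlapping neighbour on the opposite strand, Cdh23, had 14.0 CPM on P7 and 48.3 CPM on P14.

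Havcr2 (ENSMUSG00000020399.15, chromosome 11, 46345673 to 46374149, plus strand), for the receptor TIM-3, did not separate HIE pups from litter P6H55. HIE pups had 105, 116, 104 and 122 CPM, P6H55 pups 112 and 120 CPM, and P6H63 pups 12.9 and 8.17 CPM. The HIE mean was 10.6-fold that of P6H63 and 0.958-fold that of P6H55. Lgals9 (ENSMUSG00000001123.16, chromosome 11, 78853800 to 78875798, minus strand) encodes galectin-9, a secreted lectin that binds TIM-3. HIE pups had 152 and 156 CPM in N5 and 110 and 127 CPM in N8, P6H55 pups had 139 and 113 CPM, and P6H63 pups 57.9 and 44.9 CPM. HIE pups overlapped P6H55 and stood 2.65-fold above P6H63.

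Lag3 (ENSMUSG00000030124.3, chromosome 6, 124881320 to 124888765, minus strand) encodes an inhibitory receptor for MHC class II. HIE pups had 171, 155, 195 and 180 CPM, P6H55 pups 158 and 145 CPM, and P6H63 pups 33.3 and 26.4 CPM. The values of HIE and P6H55 pups overlapped at 1 pair, N5-4 below P6H55-7.

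Of the B7 costimulators, Cd80 (ENSMUSG00000075122.6, chromosome 16, 38275923 to 38316697, plus strand) was higher in each P7 HIE pup than in each control. The HIE pups had 11.1 and 10.7 CPM in N5 and 16.2 and 14.9 CPM in N8, and the controls had 4.26 and 2.53 CPM in P6H63 and 9.53 and 7.55 CPM in P6H55. The HIE litters thus differed from each other, with means of 10.9 and 15.5 CPM. The ratio to P6H63 was 3.89-fold and to P6H55 1.55-fold. Cd80 overlaps Timmdc1 on the opposite strand, at 11.1 CPM on P7. Cd86 (ENSMUSG00000022901.14, chromosome 16, 36424044 to 36486443, minus strand) had 110 and 119 CPM in N5 and 132 and 123 CPM in N8, against 114 and 81.9 CPM in P6H55 and 18.5 and 13.2 CPM in P6H63. Its HIE values overlapped those of P6H55.

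Cd40 (ENSMUSG00000017652.17, chromosome 2, 164897544 to 164914868, plus strand), for a TNF family receptor that activates antigen-presenting cells, ran the other way. P7 HIE pups had 3.26, 2.77, 3.31 and 3.69 CPM. Controls had 7.74 and 5.89 CPM in P6H63 and 3.97 and 4.41 CPM in P6H55. Each HIE pup was below each control, with means of 3.26 ± 0.38 and 5.50 ± 1.70 CPM and a log2 fold change of -0.76. Cd40 was highest in the litter with the lowest microglia score, and minus that score the log2 difference was -4.29 against P6H63 and -0.69 against P6H55.

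Counted over the 9 genes that passed the filter on P7, 4 were higher in each HIE pup than in each control (Pdcd1, Cd274, Vsir and Cd80) and 1 was lower (Cd40), where 8.51% and 8.46% of all 22517 genes tested separated in those directions. Against P6H63 alone 8 genes were above and 1 below, where 33.2% and 37.1% of all genes separated. Against P6H55 alone 4 were above and 1 below, where 12.8% and 13.3% of all genes did. The median log2 fold change over the 9 genes was 0.95 and over all genes -0.08. The edgeR quasi-likelihood fit called 0.0666% of all genes at an adjusted p of 0.05. Since the list was drawn up on this contrast, these counts say nothing further about it.

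**Figure D2:**
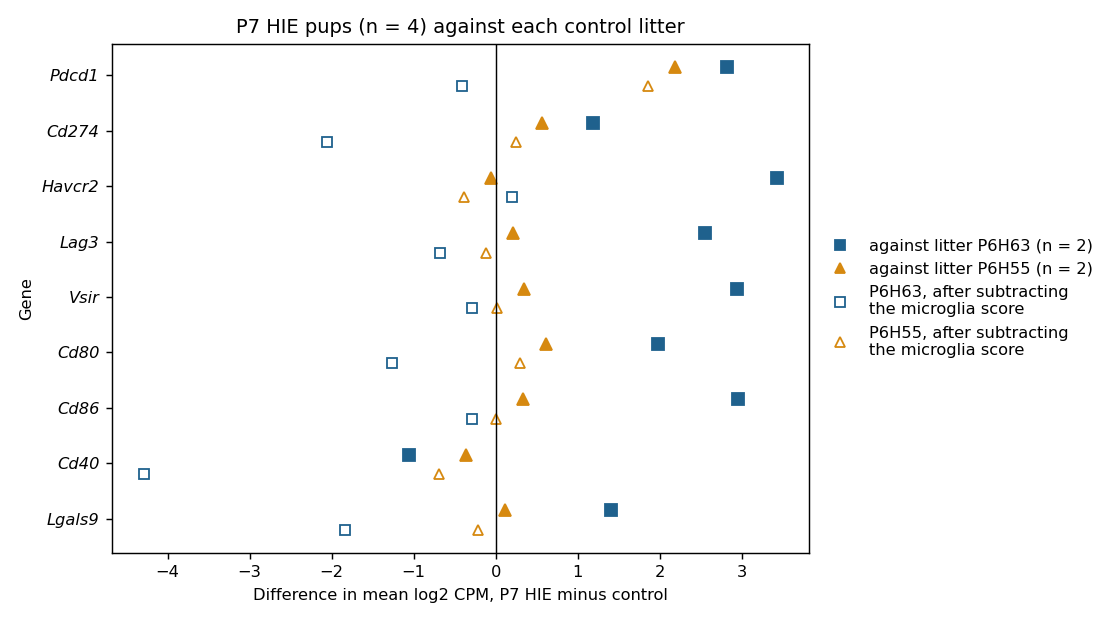
Differences in mean log2 CPM between the 4 P7 HIE pups and litter P6H63 (squares, n = 2) or litter P6H55 (triangles, n = 2), with open symbols for the same differences after subtraction of each pup's microglia score, for the 9 genes tested. Pdcd1 stands at 2.82 and 2.18 before subtraction and on opposite sides of 0 after it, at -0.41 against P6H63 and 1.86 against P6H55. The subtraction takes each gene to rise in direct proportion to the microglia markers, which was not tested.

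**Figure D3:**
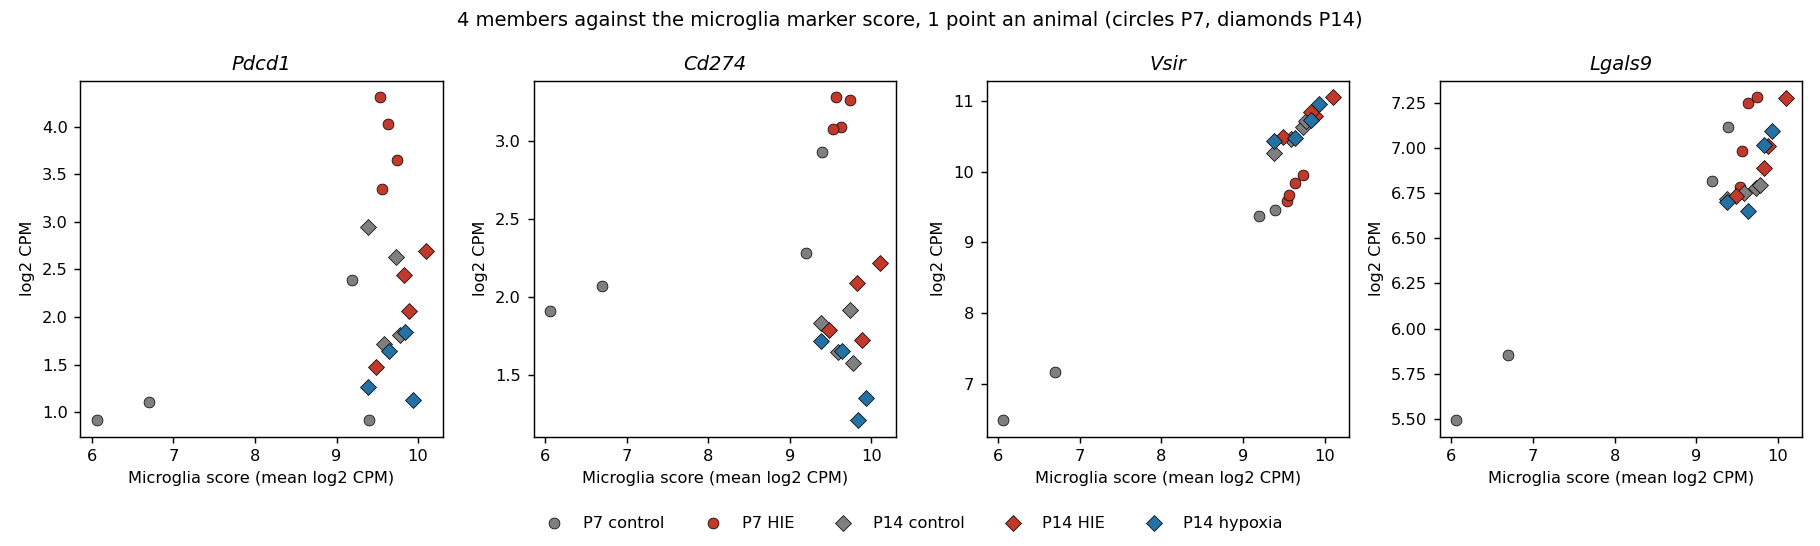
log2 CPM of Pdcd1, Cd274, Vsir and Lgals9 against the microglia score of the same animal, 1 point for each of the 20 animals. The 2 points at scores of 6.06 and 6.70 are the P6H63 controls.

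The P14 comparisons were tested, because the difference given as the reason for the list, that of Pdcd1, was on P7. Earlier results of these data were known when the list was drawn up. P14 animals were compared to see whether HIE or hypoxia animals differed from controls at the later age. By edgeR's quasi-likelihood test, 0 of the 9 genes tested passed an adjusted p of 0.05 between HIE and control, 0 at an unadjusted p of 0.05, and 0 by DESeq2. Among all 20935 genes, these shares were 0.00478%, 9.87% and 2.34%. Of the 9 genes 8 had a positive and 1 (Pdcd1) a negative log2 fold change, with a median of 0.22 over the 9 genes and 0.01 over all genes. No gene of the list separated the groups, where 2.47% of all genes were higher and 2.97% lower in each HIE than in each control animal.

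The closest to the threshold between P14 HIE and control were Lgals9 and Vsir. Lgals9 had 129 and 155 CPM (P4H) and 107 and 119 CPM (P6H) in HIE, and 111 and 108 CPM (P4H) and 110 and 105 CPM (P6H) in controls. The controls lay close together, and 3 of 4 HIE animals were above all of them. The log2 fold change was 0.23 (SE 0.11, 95% CI -0.02 to 0.48, adjusted p = 0.553 by edgeR). Vsir was at 0.28 (SE 0.15, 95% CI -0.06 to 0.61, adjusted p = 0.618 by edgeR). With the microglia score as covariate the log2 fold changes of Lgals9 and Vsir were 0.09 and 0.08, and that of Lgals9 was 0.12 without the HIE animal P4H1-6F. The intervals of Cd274 (-0.20 to 0.65), Havcr2 (-0.12 to 0.39), Lag3 (-0.11 to 0.55), Cd80 (-0.17 to 0.50), Cd86 (-0.04 to 0.31) and Cd40 (-0.41 to 1.10) also held 0. Pdcd1 had a log2 fold change of -0.13 on P14 (SE 0.34, 95% CI -0.89 to 0.63, adjusted p = 0.945 by edgeR).

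For Pdcd1 the P14 difference between HIE and control was not the same in the 2 name prefixes. Among P4H animals the difference in mean log2 CPM, HIE minus control, was 0.61, and among P6H animals it was -0.83. The P6H controls, at 7.65 and 6.13 CPM, were above all other P14 animals but 1, the P4H HIE animal at 6.43 CPM, which lay between them. In a fit with an interaction, the difference between the prefixes was -1.40 (SE 0.51) with an unadjusted p of 0.0246, and an adjusted p of 0.719 by edgeR. What the prefix stands for is not stated in the labels. Each prefix within a treatment was 1 litter here, P4H1 and P6H12 in HIE and P4H4 and P6H8 in controls. Prefix and litter therefore cannot be told apart in this difference.

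The comparison of P14 hypoxia with control used the same control animals. Pdcd1 and Lag3 were lower at an unadjusted p only. Pdcd1 had a log2 fold change of -0.88 (SE 0.31, 95% CI -1.59 to -0.18, adjusted p = 0.484 by edgeR), and its hypoxia range of 2.14 to 3.54 CPM overlapped the P4H controls at 3.24 and 3.47 CPM. Within the P6H animals, 4 against 2, it was -1.31 (adjusted p = 0.813 by edgeR). Lag3 had 116, 95.3, 86.6 and 96.8 CPM in hypoxia animals and 108, 115, 123 and 131 CPM in controls, and its fitted log2 fold change was -0.27 (SE 0.10, 95% CI -0.50 to -0.04, adjusted p = 0.487 by edgeR), and -0.32 within P6H. The highest hypoxia animal overlapped the lowest 2 controls. Of the 9 genes tested, edgeR and DESeq2 called 0, and 2 had an unadjusted p under 0.05, both lower. Over all genes edgeR called 0.00955% and DESeq2 0.783%, and 9.53% had an unadjusted p under 0.05. No gene of the list separated these groups, where 2.17% of all genes were above and 2.90% below.

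The comparison of P14 HIE with hypoxia shares animals with both comparisons above. Again 0 of 9 genes were called by edgeR or DESeq2, where edgeR called 0.00955% and DESeq2 0.0716% of all genes. An unadjusted p under 0.05 was found for 2 of the 9, both higher in HIE, and for 4.52% of all genes. These were Lag3, at 111 and 151 CPM (P4H) and 118 and 178 CPM (P6H) in HIE (log2 fold change 0.48, SE 0.16, 95% CI 0.12 to 0.83, adjusted p = 0.999 by edgeR), and Pdcd1 (0.73, SE 0.29, 95% CI 0.09 to 1.37, same adjusted p). Within P6H animals, 2 against 4, they were at 0.56 and 0.53. Cd274 was higher in each HIE animal, at 3.26, 4.60, 3.42 and 4.21 CPM, than in each hypoxia animal, at 2.51, 3.11, 3.25 and 2.27 CPM. The nearest 2 values, 3.26 and 3.25 CPM, nearly met, and the log2 fold change was 0.46 (SE 0.21, 95% CI -0.003 to 0.92). Of all genes, 1.64% separated upward and 1.02% downward, as did 1 and 0 of the 9 genes.

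**Figure D4:**
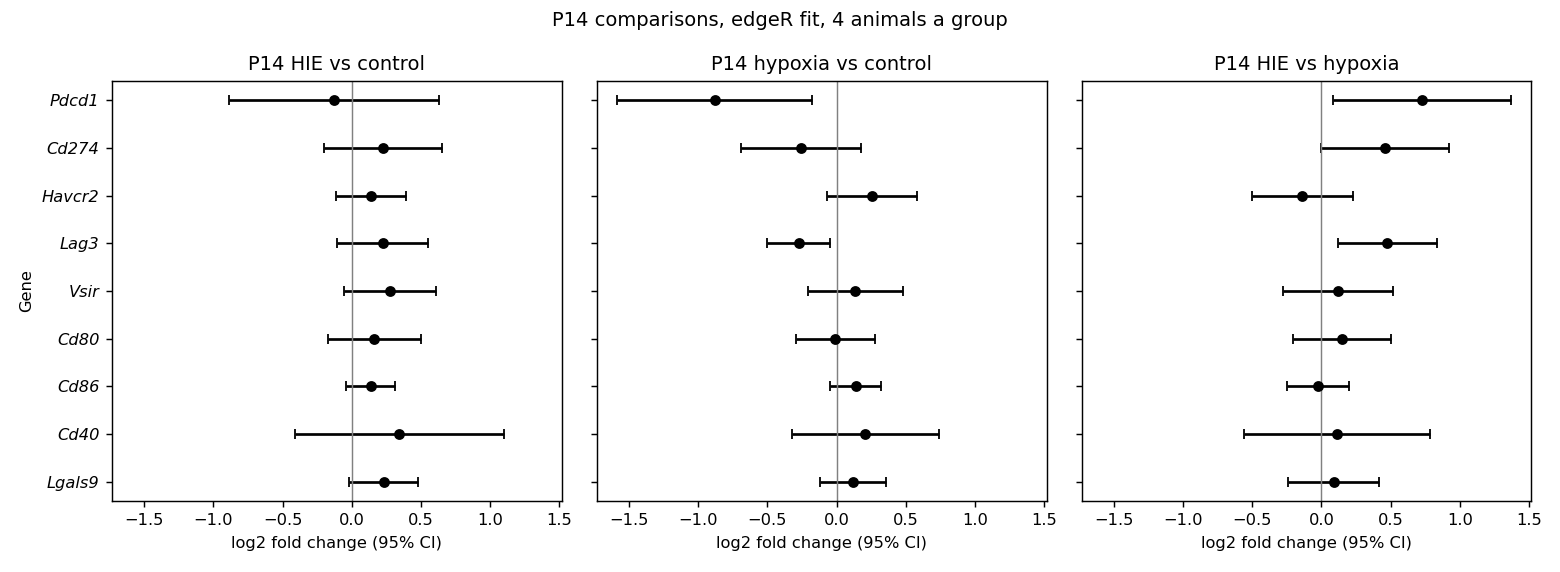
Log2 fold changes with 95% confidence intervals from the edgeR fit for the 9 genes tested on P14, for HIE against control, hypoxia against control and HIE against hypoxia (4 animals a group). The intervals for HIE against control all hold 0, while those of Pdcd1 and Lag3 in the other 2 panels do not, before adjustment over all genes.

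A list of 46 further costimulatory and coinhibitory genes gave the surroundings of these 10. The partners of the list that T cells are known for differed in level. Ctla4, the inhibitory receptor for CD80 and CD86, and Cd40lg, the ligand of CD40, passed the filter in no comparison, with P14 HIE means of 0.0786 and 0.0035 CPM. Cd28, the activating receptor, had 7.09 ± 3.82 CPM in P7 HIE and 2.88 ± 2.16 CPM in P7 controls, and its HIE pups overlapped litter P6H55. Icos, a relative of Cd28, passed the filter in each comparison and had 7.22 ± 1.85 CPM in P7 HIE, 5.09 ± 4.15 CPM in P7 controls and 2.78 ± 1.02 CPM in P14 HIE. For Icos too the HIE pups overlapped litter P6H55, with a mean 0.843-fold that of P6H55 and 4.48-fold that of P6H63. Sirpa, a myeloid receptor for the inhibitory protein CD47, was abundant at 2244 ± 318 CPM in P14 HIE and 2096 ± 220 CPM in P14 controls.

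Between P14 HIE and control, 34 of the 46 genes were tested and edgeR called 0, while DESeq2 called 1, and 4 had an unadjusted p under 0.05 by edgeR. The shares over all genes are those given for this comparison above, 2.34% for DESeq2 and 9.87% for the unadjusted p, and 1 and 4 of 34 genes are near them. The gene DESeq2 called was Timd4, for the phosphatidylserine receptor TIM-4 of macrophages, at 1.62 ± 0.12 CPM in HIE and 2.87 ± 0.69 CPM in controls. Its log2 fold change was -0.83 (SE 0.23), with an adjusted p of 0.270 by edgeR and 0.0213 by DESeq2, and each HIE animal was below each control. The other 3 were higher: Cd276, for B7-H3 (0.46, SE 0.15, adjusted p = 0.317 by edgeR), Nectin2, a ligand of TIGIT and CD226 (0.38, SE 0.12), and Cd48, the ligand of CD244 (0.44, SE 0.16). By size alone the largest positive differences were those of Cd244a (0.88), Cd27 (0.53) and Cd276, and the largest negative ones Tnfsf18 (-0.90), Timd4 and Cd226 (-0.76). Cd244a had 1.57 ± 0.93 CPM in HIE and 0.843 ± 0.290 CPM in controls, and Cd27 1.45 ± 0.73 and 1.01 ± 0.26 CPM. Tnfsf18 had 2.40 ± 0.49 and 4.49 ± 4.14 CPM, with widely spread controls, and Cd226 0.509 ± 0.206 and 0.866 ± 0.338 CPM. Cd244a, Cd27, Tnfsf18 and Cd226 did not reach an unadjusted p under 0.05 by edgeR. The median over the 34 genes was 0.05.

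Between P14 hypoxia and control, 33 genes were tested and 0 were called by either tool, with 1 higher and 4 lower at an unadjusted p of 0.05, which 9.53% of all genes passed. Icosl, for the ligand of ICOS, was at 0.26, and Vsig4, for a complement receptor of macrophages, at -1.40 with 0.254 ± 0.098 against 0.678 ± 0.048 CPM. Between HIE and hypoxia, 34 were tested and 0 called by either tool, with 5 higher at an unadjusted p of 0.05, which 4.52% of all genes passed in either direction, among them Traf1, a signalling adaptor downstream of CD40, at 5.86 ± 1.02 against 2.88 ± 1.13 CPM (1.00, SE 0.28, adjusted p = 0.999 by edgeR).

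On P7, again as a description, 35 of the 46 genes were tested, with 27 positive and 8 negative log2 fold changes and a median of 0.36. The largest were those of Vsig4 (2.41, at 0.495 ± 0.307 and 0.095 ± 0.114 CPM), Cd244a (1.75) and Cd28, and each of these 3 overlapped litter P6H55. The most negative were Tnfrsf18, for the TNF family receptor GITR (-1.03), Traf1 (-0.83) and Cd200, for a ligand that restrains myeloid cells (-0.74). Of these 3, Tnfrsf18 alone was lower in each HIE pup than in each control. The direction for Traf1 depended on the control litter. Its HIE pups were all below P6H63, at 0.369-fold by mean CPM, and all above P6H55, at 1.20-fold. For Cd200 the HIE pups were below P6H63 (0.450-fold) and overlapped P6H55 (0.898-fold).

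Across the 12 P14 animals, the genes of the list differed in how closely they followed the microglia score. Pearson's r of log2 CPM with the score was 0.956 for Vsir, 0.872 for Lgals9, 0.776 for Cd86 and 0.603 for Havcr2. For Lag3, Cd40, Cd80, Pdcd1 and Cd274 it was 0.415, 0.375, 0.222, 0.162 and 0.069. These are descriptions over 12 animals of 3 groups, and the animals differ in depth and cell content.

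The gene most like Vsir over these animals, among 20935 searched, was Vav1, for a signalling protein of blood cells (r = 0.970), followed by the microglial chemokine receptor gene Cx3cr1 (0.964). Cx3cr1 is itself among the 16 marker genes of the microglia score. For Lgals9 they were Stk24 (0.934) and Lasp1 (0.932), for Cd86 Zfp563 (0.959) and Polr1h (0.929), and for Havcr2 Sema4b (0.918) and B4galt1 (0.900). Lag3 was most like Il4i1 (0.926) and Ints3 (0.910), Cd274 like Xylt2 (0.927) and Fam234a (0.898), and Pdcd1 like Klf16 (0.898) and Albfm1 (0.885). Cd80 was most like Gm49797 (0.909) and Tbc1d4 (0.880), and Cd40 like Lrrc40 (0.959) and D430020J02Rik (0.922). The highest of so many correlations are high by selection, and they are given without a p-value.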

How the data were processed

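CD11b+ cells were enriched from whole brain, and stranded libraries were made from total RNA after ribosomal RNA removal. The authors mapped reads to GRCm39 with Sentieon's STAR and deposited expected counts per gene estimated with RSEM, without scaling. RSEM divides reads that match several genes. The 2 tables (P14, P7) list 56691 genes, of which 56017 identifiers matched GENCODE M39 and 674 did not. No per-sample column was left unused. Expected counts were rounded, and libraries of the same animal were summed (22 libraries, 20 animals).

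The members and lists were chosen with earlier results of these data known. Counts were tested with edgeR 4.0.16 in R 4.3.3 (quasi-likelihood test, TMM, default filter on low counts, Benjamini-Hochberg adjustment over all genes tested), and DESeq2 1.42.0 was the alternative. Log2 CPM used a prior count of 2. A floor of 3 counts per animal, 0.0359 to 0.101 CPM, was taken as detectable, for counting error only. Levels per length used the union of exons in GENCODE. Littermates were treated as separate animals, so p-values measure the spread between these animals and not between litters. Named genes were all members, the called or 3 largest and smallest changes of the pathway list (on P14 for HIE against control and on P7), the 2 genes most like each member, and the top gene of marker lists. Genes named for an unadjusted p, the T cell partners, Icos, Sirpa and the sex and T cell markers were chosen after their values were seen. Alternatives covered normalization, the filter, the test, covariates, name prefix, control litter and leaving out each animal. The steps were tested on simulated data.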

Additional observations from a re-analysis of the deposited data

Results flagged for a closer look

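In groups of 4, a value was marked when its gap to the nearest other value exceeded Dixon's critical share of the group's range, which chance gives in about 1 of 20 groups. Of 50 gene and group pairs 4 were marked. Pdcd1 in the P7 control P6H55-12 was 5.22 CPM, where the next highest control had 2.12 CPM. This pup is the one with neither Xist nor Ddx3y and the only P7 library labelled RNA2, and the part of either in its value was not tested. Pdcd1lg2 was marked in the P7 control P6H55-7 at 0.230 CPM (next 0.0589 CPM), in the P14 control P4H4-8M at 0 CPM (next 0.145 CPM) and in the P14 hypoxia animal P6H7-8F at 0.0811 CPM (the others at 0), values that rest on 16 counts or fewer.

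The P14 difference of Pdcd1 between HIE and control varied between the name prefixes at an unadjusted p, by -1.40 on the log2 scale (P6H minus P4H). With 0.719 as its adjusted p by edgeR, it did not pass the threshold over all genes. Prefix and litter cannot be told apart in this value.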

How the results depend on the processing

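No paired analysis was possible because each litter holds 1 treatment and replicate numbers were given here only as names, in accession order. No gene of the list was called in any P14 comparison under any alternative run, including DESeq2, the bias-adjusted fit, all 12 P14 animals in 1 fit, sex label or name prefix as a covariate, the first library only and leaving out each animal in turn. On P7, the number of genes with each HIE pup above each control was 4, and 8 against litter P6H63 alone, with 4 to 6 when 1 pup was left out. The HIE against control fits within 1 prefix, the interaction and the removal of both pups with unmatched sex transcripts (5 genes) were chosen after seeing the data.

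With the microglia score as covariate, the HIE against control values of Lgals9, Vsir, Cd86, Cd40, Cd274 and Pdcd1 moved from 0.230, 0.278, 0.136, 0.341, 0.223 and -0.130 to 0.0885, 0.0794, 0.0750, 0.0305, 0.148 and -0.283. Signs of small, uncalled P14 log2 fold changes turned in these cases, and the cause was not tested. For HIE against control, Havcr2 was -0.0233 with the microglia score as covariate, Pdcd1 0.647 and Cd80 -0.00561 among P4H animals, and Pdcd1 ran from -0.322 to 0.127 with 1 animal left out. For hypoxia against control, Cd80 was 0.000450 with DESeq2 size factors and 0.0557 among P6H animals, and ran from -0.0759 to 0.0641 with 1 animal left out. For HIE against hypoxia, Lgals9 was -0.0202 with the microglia score as covariate, Vsir -0.00978, Cd40 -0.491 and Lgals9 -0.0870 among P6H animals. With 1 animal left out, Cd40 ran from -0.189 to 0.280, Lgals9 from -0.0175 to 0.179, Cd86 from -0.0751 to 0.0421 and Havcr2 from -0.216 to 0.0335.

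Over all genes, DESeq2 called 490, 164 and 15 where edgeR called 1, 2 and 2 (HIE against control, hypoxia against control, HIE against hypoxia), and edgeR called 0 in each with all 12 animals in 1 fit. On P7 DESeq2 called 3024 genes and edgeR 15, with 13904 by edgeR against P6H63 alone, 26 against P6H55 alone and 5588 without the control P6H55-7. Scaling by library size alone moved the P7 median log2 fold change from -0.08 to -0.28, and Pdcd1 to 2.25. At 0 to 16 counts per animal, differences in Pdcd1lg2 were not detectable.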
